A study of Mus musculus with 8 samples.

Results

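Cytochrome P450 genes outside the CYP1 family were followed in mouse hepatocytes exposed to shear stress, the drag of a moving fluid on the cell surface, against hepatocytes in static culture. The members were all genes whose symbol begins with Cyp and a digit, apart from Cyp1a1, Cyp1a2, Cyp1b1, the bile acid synthesis genes Cyp7a1, Cyp7b1, Cyp8b1 and Cyp27a1, and the sterol demethylase gene Cyp51. This rule read symbols only and gave 82 of the 17276 genes in the files. The cells of both groups were wild type hepatocytes of male C57BL/6N mice aged 6-8 weeks, and there were 4 RNA-seq libraries from shear stress and 4 from static culture. Stress magnitude and exposure time are not in the labels, and it is not stated that libraries of 1 group are from different animals or cultures, so the p-values measure only the spread between these libraries, which may be technical.

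P450 enzymes are haem proteins that insert an atom of molecular oxygen into a substrate, with electrons passed on by cytochrome P450 reductase in the endoplasmic reticulum or by ferredoxin in mitochondria. In liver, families CYP2 and CYP3 oxidise drugs, steroids and other foreign or endogenous lipids, and family CYP4 hydroxylates fatty acids and eicosanoids. Hepatocytes around the central vein carry most of this enzyme mass, and the genes are controlled by nuclear receptors such as CAR, PXR and PPARA and by liver-enriched transcription factors. Many of these genes are known to lose transcript when hepatocytes are taken into culture.

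Values are given as CPM, estimated counts scaled by the library total and its TMM factor, and as log2 ratios (fold changes) of shear stress to static with a standard error. A gene counted as changed where the adjusted p of the edgeR quasi-likelihood test, over all 11747 tested genes, was under 0.05. Libraries that carry the same replicate number in both groups deviated together, so a second fit took the number as a block, and its value is given where it changes the call.

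Of the 82 genes, 55 had enough counts to be tested. A total of 15 fell under shear stress, 2 rose, and 38 did not pass the test. The share that fell, 27.3%, was near that of all tested genes, of which 23.7% fell, while 3.64% rose against 24.9% of all tested genes. Either direction was called in 30.9% of the tested P450 genes and in 48.6% of all tested genes. With the replicate number as a block, 36 fell, 3 rose and 16 did not pass (65.5% and 5.45%), where 31.0% of all tested genes fell and 30.1% rose. All 15 falls without the block were kept in it, and 21 more were added. The P450 genes that did not pass without the block had a median coefficient of variation of 37.7% between static libraries, against 22.9% for the 15 that fell (a description, with no test). The test weighs a change against the spread between libraries, so this difference is partly built in. Among the genes that did not pass, Cyp2a4, Cyp4a14 and Cyp4a10 are examples whose level differed by an order of magnitude between libraries of the same group. In bulk RNA, fewer hepatocytes and less P450 RNA per hepatocyte cannot be told apart. All 6 hepatocyte markers also fell (median -0.58), and their part in the P450 result was not tested.

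The median log2 fold change of the 55 genes was -0.49, beside -0.01 over all tested genes, and 50 of the 55 were below 0. Within pairs of the same replicate number, 41 genes (74.5%) were lower under shear stress in all 4 pairs and 4 were higher in all 4, where 35.2% and 33.7% of all tested genes were. The groups did not overlap in 10 genes that were lower and in 2 that were higher, against 21.5% and 23.7% of all tested genes. Called falls of at least 2-fold numbered 5 (9.09%, where 6.83% of all tested genes had one), namely Cyp2c55, Cyp2c65, Cyp2f2, Cyp26b1 and Cyp39a1, and Cyp21a1 was the 1 called rise of that size (1.82%, against 10.5%). These counts depend on how the libraries are scaled. With library totals in place of TMM factors the median of all genes moved to 0.22 and that of the P450 genes to -0.28, 43 of the 55 were below 0, and 31 genes (56.4%) were lower in all 4 pairs and 7 higher, where the shares of all genes were 22.5% and 47.7%. In that scaling 8 P450 genes fell without the block, where 1539 of all 11747 tested genes fell and 4157 rose. With the block 28 P450 genes fell and 4 rose, where 5080 of all tested genes rose. The falls of all genes in that last fit are not given here, so the 28 cannot be set against them.

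**Figure D1:**
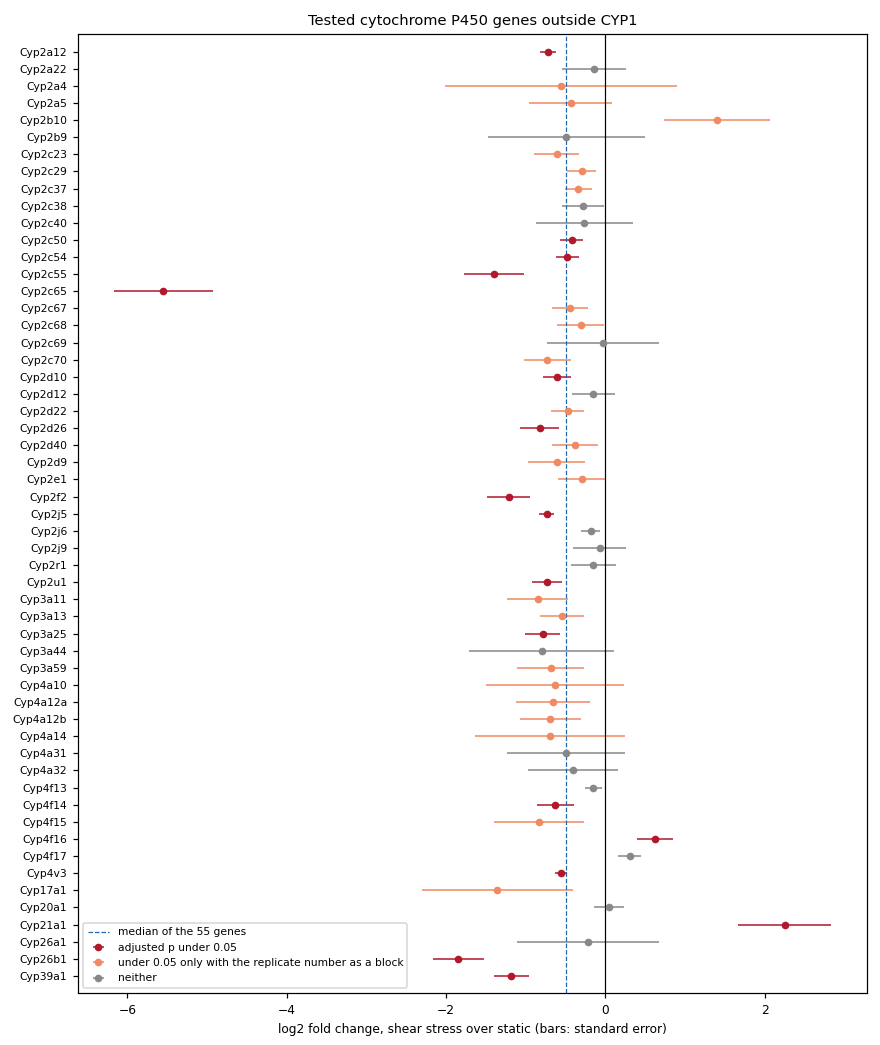
Log2 fold change of shear stress over static (x axis) for the 55 tested P450 genes (y axis, by subfamily), with bars for the standard error and colours for the test result. The points lie mostly left of 0, around a median of -0.49, and Cyp21a1 at 2.25 and Cyp2c65 at -5.55 are the extremes.

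Transcript levels between genes are compared by the deposited TPM, which allows for length. P450 genes outside CYP1 summed to 5012, 4153, 5014 and 4034 TPM in shear stress replicates 1 to 4, against 6473, 5579, 5989 and 5310 TPM in static replicates 1 to 4, so each shear stress library lay below every static one. The highest was Cyp3a11, the main mouse counterpart of the human drug-metabolising enzyme CYP3A4, at 641 ± 241 TPM under shear stress and 983 ± 395 TPM in static culture (SD, n = 4 each). Cyp2e1, which oxidises ethanol and paracetamol, followed with 549 ± 202 TPM under shear stress and 579 ± 174 TPM in static culture. The coumarin hydroxylase gene Cyp2a5 stood at 521 ± 217 TPM under shear stress and 599 ± 281 TPM in static culture. The standard deviations of these 3 genes overlapped in both groups. Within libraries, Cyp3a11 was above Cyp2e1 in all but shear stress replicate 2 (372 against 419 TPM). It was below Cyp2a5 in shear stress replicate 4 (507 against 607 TPM) and static replicate 4 (719 against 741 TPM). Cyp2e1 and Cyp2a5 also changed places between libraries, so the order of the 3 is not firm. Cyp2d26, Cyp2d10, Cyp2c29, Cyp2f2, Cyp2d9, Cyp2a12 and Cyp2c70 came next, and the 10 genes together held 70.9% of P450 TPM under shear stress and 73.2% in static culture.

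**Figure D2:**
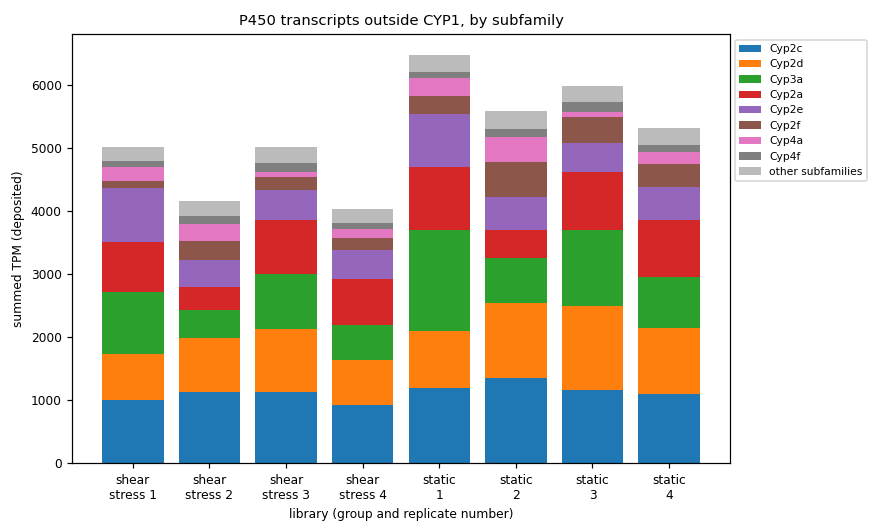
Summed deposited TPM of P450 genes outside CYP1 (y axis) in each library (x axis), stacked by subfamily, with the 8 highest subfamilies in colour. The stacks reach 4034 to 5014 TPM in shear stress libraries and 5310 to 6473 TPM in static libraries.

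The CYP3A genes oxidise drugs and steroids. Of 8 members 5 were tested. Among them 1 fell without the block and 4 fell with it, and all 5 were lower in every pair. Cyp3a11 (chromosome 5, 145854607 to 145879854, minus strand, GRCm38.p6) had 1163, 425, 969.6 and 650.1 CPM in shear stress replicates 1 to 4, against 2209.8, 802, 1701 and 1061 CPM in static replicates 1 to 4. Library 2 was the lowest of its group in both conditions, and the groups overlapped, but each shear stress library was below the static library of its number, at 0.526, 0.53, 0.57 and 0.613 of it. Its change did not pass without the block (log2 fold change -0.85 ± 0.38, adjusted p = 0.0941) and passed with it (-0.84, adjusted p = 6.27e-06). Cyp3a25, another steroid and drug oxidase, had 39.2, 32.8, 31.5 and 20.3 CPM under shear stress and 57.8, 66.5, 51.8 and 37.3 CPM in static culture, and it fell (log2 fold change -0.79 ± 0.22, adjusted p = 0.0161). In library totals scaling the call on Cyp3a25 was lost (adjusted p = 0.0676). Cyp3a13 fell only with the block (-0.53, adjusted p = 0.00042), as did Cyp3a59 (-0.67, adjusted p = 0.00432), and Cyp3a44 did not pass either fit (-0.82, adjusted p = 0.0769 with the block).

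The promoter windows below show the region just upstream of genes whose values carry the account: Cyp3a11, Cyp2f2 and Cyp2c65, and the near-identical pair Cyp2a4 and Cyp2a5. Each holds 250 bases before and 50 after the RefSeq start (GRCm38.p6), 5′ to 3′ on the gene's strand, and capitals mark matches to 5 motifs.
Cyp3a11 (chr5:145879805-145880104, minus strand): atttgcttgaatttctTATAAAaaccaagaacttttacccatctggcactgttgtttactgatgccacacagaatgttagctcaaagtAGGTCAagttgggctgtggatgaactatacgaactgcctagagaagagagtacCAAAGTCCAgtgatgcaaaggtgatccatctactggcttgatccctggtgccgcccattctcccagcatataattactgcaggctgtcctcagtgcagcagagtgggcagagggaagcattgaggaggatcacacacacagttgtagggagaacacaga
Cyp2f2 (chr7:27119705-27120004, plus strand): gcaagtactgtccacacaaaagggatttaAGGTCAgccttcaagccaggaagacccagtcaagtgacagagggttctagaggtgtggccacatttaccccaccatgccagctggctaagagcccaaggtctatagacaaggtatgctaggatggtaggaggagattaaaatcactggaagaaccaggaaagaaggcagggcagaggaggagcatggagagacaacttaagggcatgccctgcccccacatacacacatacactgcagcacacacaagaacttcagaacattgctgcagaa
Cyp2c65 (chr19:39060756-39061055, plus strand): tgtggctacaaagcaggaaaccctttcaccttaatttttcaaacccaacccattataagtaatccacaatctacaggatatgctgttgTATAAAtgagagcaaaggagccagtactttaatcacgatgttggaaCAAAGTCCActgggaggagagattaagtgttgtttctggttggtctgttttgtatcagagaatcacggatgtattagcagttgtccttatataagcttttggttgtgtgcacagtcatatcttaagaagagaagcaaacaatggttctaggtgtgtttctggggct
Cyp2a4 (chr7:26306942-26307241, plus strand): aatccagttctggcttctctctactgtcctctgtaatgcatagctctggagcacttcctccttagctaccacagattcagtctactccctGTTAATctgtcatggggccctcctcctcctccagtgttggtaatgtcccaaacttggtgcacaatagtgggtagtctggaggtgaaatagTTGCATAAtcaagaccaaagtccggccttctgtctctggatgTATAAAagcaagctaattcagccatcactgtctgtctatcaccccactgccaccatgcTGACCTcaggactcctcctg
Cyp2a5 (chr7:26835089-26835388, plus strand): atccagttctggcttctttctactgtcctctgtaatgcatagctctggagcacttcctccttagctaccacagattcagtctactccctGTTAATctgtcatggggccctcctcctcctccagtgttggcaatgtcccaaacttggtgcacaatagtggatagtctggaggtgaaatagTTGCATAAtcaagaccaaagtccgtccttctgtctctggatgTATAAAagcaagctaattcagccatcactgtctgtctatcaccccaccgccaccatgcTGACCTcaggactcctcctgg

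The motifs were searched on both strands, as a TATA box (TATAAA), a nuclear receptor half-site (AGGTCA), a C/EBP palindrome (TTGCNNAA), an HNF1 half-site (GTTAAT) and an HNF4 element (CAAAGTCCA). A window was found for 63 of the 82 genes, and the 41 tested genes among them gave 45 windows. TATAAA was in 51.1% of these windows and in 13.6% of the 32851 windows of all genes. CAAAGTCCA was in 15.6% and 0.475%, TTGCNNAA in 35.6% and 10.8%, AGGTCA in 28.9% and 16.3%, and GTTAAT in 17.8% and 7.1%. Related genes share sequence, so these windows are not independent, and a match is a run of letters, not a shown binding site. Matches were counted at any position in the window. The Cyp3a11 and Cyp2c65 windows both hold TATAAA and CAAAGTCCA, and the Cyp2f2 window holds AGGTCA alone of the 5. The TATAAA match lies at -234 from the RefSeq start in Cyp3a11 and at -162 in Cyp2c65, but at -28 in Cyp2a4 and -29 in Cyp2a5.

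CYP2C enzymes oxidise drugs and turn arachidonic acid into epoxides and hydroxy acids. Of 15 members 13 were tested, 4 fell without the block and 10 with it, and none rose. Cyp2c65 (chromosome 19, 39061006 to 39093948, plus strand), known from mouse intestine, had 0, 0.104, 0 and 0 CPM in shear stress replicates 1 to 4, against 1.29, 1.86, 1.74 and 1.68 CPM in static replicates 1 to 4. It was close to absent under shear stress, with 2 counts over the 4 libraries against 104 in static culture. Relative to the summed TMM-scaled library sizes, the static counts were 58.9 times as high, with an exact 95% interval of 15.9 to 493 that covers counting error only. Its test passed (log2 fold change -5.55 ± 0.62, adjusted p = 0.000166), but the size of the fitted fold depends on the prior count and on shear stress replicate 2, the 1 shear stress library with counts, without which it was -7.77. In these libraries 3 counts are worth 0.157 to 0.174 CPM. Cyp2c55, which hydroxylates arachidonic acid, had 2.78, 0.678, 1.79 and 1.75 CPM under shear stress and 5.73, 3.14, 4.47 and 5.04 CPM in static culture. It fell with no overlap of the groups (log2 fold change -1.39 ± 0.37, adjusted p = 0.0123).

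Cyp2c50 had 178, 112, 145 and 155 CPM in shear stress replicates 1 to 4, against 222, 172, 189.6 and 208 CPM in static replicates 1 to 4. Cyp2c54 had 62.8, 56.6, 49.9 and 55.6 CPM in shear stress replicates 1 to 4, against 85.3, 95.2, 60.3 and 71.9 CPM in static replicates 1 to 4. Both are arachidonic acid epoxygenases and both fell by a small amount (log2 fold change -0.42 ± 0.14, adjusted p = 0.035 for Cyp2c50 and log2 fold change -0.48 ± 0.14, adjusted p = 0.0213 for Cyp2c54), though their groups overlapped. The call on Cyp2c50 was lost when any library other than shear stress replicate 1 or static replicate 2 was left out, with adjusted p up to 0.0839. That on Cyp2c54 was lost without shear stress replicate 3 (0.0561), shear stress replicate 4 (0.0538) or static replicate 1 (0.0524), and both were lost in library totals scaling (0.229 and 0.213). Cyp2c29, the most abundant of the subfamily, had 285, 251, 394 and 360.4 CPM under shear stress and 378, 284, 457 and 465 CPM in static culture. The change of Cyp2c29 did not pass without the block (log2 fold change -0.30 ± 0.19, adjusted p = 0.216) and passed with it (-0.29, adjusted p = 0.00418), but not with the block and library totals (-0.07, adjusted p = 0.423). Cyp2c70, which makes the muricholic acids of mouse bile, averaged 123 ± 41.7 CPM under shear stress and 204 ± 76.0 CPM in static culture and fell only with the block (-0.72, adjusted p = 2.26e-05). The other falls with the block alone were those of Cyp2c23 (-0.61, adjusted p = 6.38e-05), an arachidonic acid epoxygenase, and of Cyp2c37 (-0.33, adjusted p = 0.0122), Cyp2c67 (-0.44, adjusted p = 0.000465) and Cyp2c68 (-0.31, adjusted p = 0.00763). Cyp2c38, Cyp2c40 and Cyp2c69 passed neither fit, with log2 fold changes of -0.28, -0.26 and -0.03 without the block.

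The codons around the haem-binding cysteine, a stretch conserved across P450 enzymes, are shown for a pair that fell together (Cyp2c50 and Cyp2c54) and a pair that changed in opposite directions (Cyp4f14 and Cyp4f16), read from GENCODE transcripts with the cysteine codon in capitals.
Cyp2c50: ttctcaacaggaaaacggataTGTgcagga
Cyp2c54: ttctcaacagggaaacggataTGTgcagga
Cyp4f14: ttctcggcgggacccaggaacTGCatagga
Cyp4f16: ttttctgccgggcccaggaacTGCatagga
Of the 82 genes, 77 had a match to this haem-binding signature in the longest reading frame of their transcript. Over the whole transcripts, 30 of the 55 tested genes shared more than 10% of their 50-base windows with another gene, 3 shared more than 50%, and 10 shared none. The division of reads between such copies is an estimate, as for Cyp2c40, with 72.1% of windows shared, and for Cyp4a12a and Cyp4a12b, with 48.9% and 49.4%.

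CYP2D genes encode enzymes for basic drugs and steroids. Of 8 members 6 were tested, and 2 fell without the block and 5 with it. Cyp2d26 (chromosome 15, 82790107 to 82794452, minus strand) had 204, 367, 262 and 205 CPM in shear stress replicates 1 to 4, against 341, 648, 464 and 386 CPM in static replicates 1 to 4. Cyp2d10 had 254, 232, 329 and 240.0 CPM in shear stress replicates 1 to 4, against 332, 340.1, 544 and 392 CPM in static replicates 1 to 4. Both fell (log2 fold change -0.82 ± 0.25, adjusted p = 0.0211 for Cyp2d26 and log2 fold change -0.61 ± 0.18, adjusted p = 0.018 for Cyp2d10), and the groups were apart for Cyp2d10 only. The call on Cyp2d26 was lost without shear stress replicate 1 (adjusted p = 0.0612) or 4 (0.0585), that on Cyp2d10 without shear stress replicate 4 (0.0526), and both in library totals scaling (0.0962 and 0.0639). Cyp2d9, a male-biased testosterone hydroxylase gene in mouse liver, had 206, 83.7, 228 and 177 CPM under shear stress and 281, 129, 346 and 301 CPM in static culture. It was lower in each of the 4 pairs and passed only with the block (-0.61, adjusted p = 8.45e-05). Cyp2d22 (-0.47, adjusted p = 0.00107) and Cyp2d40 (-0.36, adjusted p = 0.0119) likewise fell with the block alone, and Cyp2d12 passed neither fit (-0.15).

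Among the CYP2A genes, which hydroxylate coumarin and testosterone, all 4 members were tested, and 1 fell without the block and 3 with it. Cyp2a12 (chromosome 7, 27029090 to 27036818, plus strand), a testosterone hydroxylase, had 134, 132, 138 and 115 CPM in shear stress replicates 1 to 4, against 209.7, 241, 209 and 193 CPM in static replicates 1 to 4. The groups were apart, and the gene fell (log2 fold change -0.72 ± 0.10, adjusted p = 0.000447). Cyp2a5 had 699, 183, 612 and 629 CPM under shear stress and 1011, 209, 763 and 886 CPM in static culture. Library 2 was low in both groups, so the groups overlapped, and Cyp2a5 passed only with the block (-0.39, adjusted p = 0.00128), a call that was lost with the block and library totals (adjusted p = 0.097). Its close copy Cyp2a4, a female-biased steroid hydroxylase gene chosen here after its values were seen, had 3.18, 13.7, 85.6 and 1.19 CPM under shear stress and 3.51, 14.1, 133 and 2.4 CPM in static culture. Cyp2a4 did not pass without the block (log2 fold change -0.56 ± 1.46, adjusted p = 0.774) and fell with it (-0.40, adjusted p = 0.0421). Static libraries of Cyp2a4 differed by up to 55.6 times and those of Cyp2a5 by up to 4.84 times. The promoter windows printed above are 97.7% identical (294 of 301 aligned columns). The coding sequences matched in 1462 of 1542 aligned columns (94.8%). That share counts a length difference as mismatch, since the reading frame taken for Cyp2a5 has 1542 bases and that for Cyp2a4 1485. Library 3 was the highest for Cyp2a4 in both groups, and for Cyp2a5 library 2 was the lowest in both. Reads of the pair are partly shared (38.0% and 40.8% of their windows with any other gene). Cyp2a22 passed neither fit (-0.14).

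The CYP2B genes are the classic targets of the receptor CAR. Of 3 members 2 were tested and none passed without the block. Cyp2b10 had 5.56, 1.93, 8.66 and 1.25 CPM in shear stress replicates 1 to 4, against 1.91, 0.931, 3.11 and 0.72 CPM in static replicates 1 to 4. Each shear stress library was above the static library of its number, by 1.73 to 2.91 times, and Cyp2b10 rose only with the block (1.29, adjusted p = 0.000835) and not without it (log2 fold change 1.4 ± 0.66, adjusted p = 0.109). Cyp2b9, a female-biased gene, passed neither fit (-0.49).

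Cyp2f2 (chromosome 7, 27119955 to 27133660, plus strand) is known for bioactivating naphthalene and, in mouse liver, for a periportal position. It had 124, 313, 224 and 215 CPM in shear stress replicates 1 to 4, against 372, 649.8, 532 and 474 CPM in static replicates 1 to 4. Every shear stress library was below every static one, at 0.335 to 0.481 of the library of the same number, and Cyp2f2 fell (log2 fold change -1.21 ± 0.27, adjusted p = 0.00545). Cyp2e1, pericentral in mouse liver, had 936, 401, 477 and 489 CPM under shear stress and 1052, 565, 562 and 641 CPM in static culture. Library 1 was the highest of both groups, and Cyp2e1 passed only with the block (-0.32, adjusted p = 0.00313), though not with the block and library totals (adjusted p = 0.245). Cyp2j5, an arachidonic acid epoxygenase gene of liver and kidney (chromosome 4, 96627432 to 96664171, minus strand), had 87.6, 76.7, 95.3 and 77.9 CPM in shear stress replicates 1 to 4, against 145, 140.0, 137 and 140.4 CPM in static replicates 1 to 4. Its static libraries differed by 1.06 times, the groups were apart, and Cyp2j5 fell (log2 fold change -0.74 ± 0.09, adjusted p = 0.000276). Of the 5 CYP2J members 3 were tested, and Cyp2j5 was the only one called in either fit (Cyp2j6 at -0.18 and Cyp2j9 at -0.07 without the block).

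Cyp2u1, which hydroxylates long-chain fatty acids, had 4.11, 5.01, 5.83 and 3.68 CPM under shear stress and 7.21, 7.1, 9.25 and 7.5 CPM in static culture and fell (log2 fold change -0.73 ± 0.19, adjusted p = 0.0103). The groups were apart, and the call was lost in library totals scaling (adjusted p = 0.0537). Cyp2r1 encodes the main vitamin D 25-hydroxylase of liver. It had 6.37, 3.65, 6.52 and 4.25 CPM under shear stress and 8.13, 4.07, 4.32 and 6.48 CPM in static culture, with overlapping groups and no call (log2 fold change -0.15 ± 0.28, adjusted p = 0.687), and its direction flipped in library totals scaling (0.07).

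**Figure D3:**
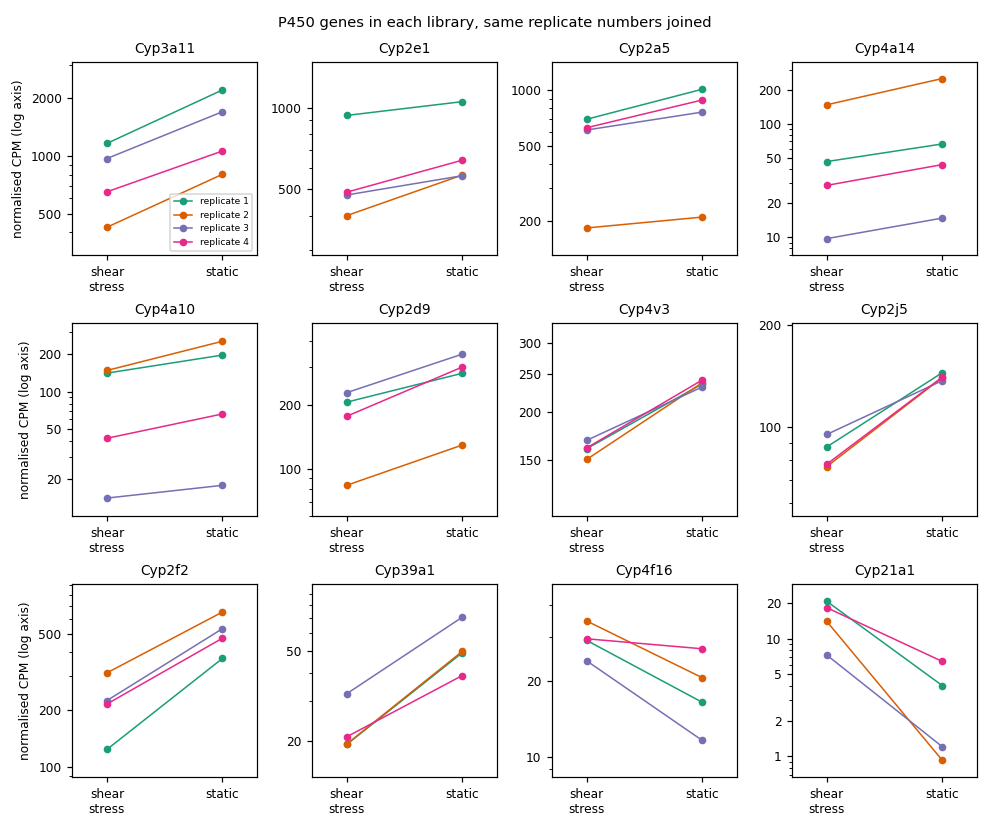
Normalised CPM (y axis, log scale) of 12 P450 genes in shear stress (left) and static (right) libraries, with lines joining libraries of the same replicate number. The lines of Cyp3a11, Cyp4a10 and Cyp4a14 are lower at the shear stress end and run in parallel across levels that differ between replicates, and those of Cyp4f16 and Cyp21a1 are higher at that end.

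CYP4A enzymes hydroxylate the end of the fatty acid chain and are textbook targets of PPARA. All 6 members were tested, none passed without the block, and 4 fell with it. Cyp4a10 (chromosome 4, 115518287 to 115533649, plus strand) had 141, 148, 14.02 and 42.3 CPM in shear stress replicates 1 to 4, against 196, 254, 17.7 and 66.2 CPM in static replicates 1 to 4. Cyp4a14 (chromosome 4, 115486200 to 115496158, minus strand) had 46.5, 147, 9.75 and 28.7 CPM in shear stress replicates 1 to 4, against 66.5, 250.4, 14.8 and 43.7 CPM in static replicates 1 to 4. In both genes library 3 was the lowest of each group, and static libraries differed by 14.3 and 16.9 times. Within pairs the shear stress level was 0.583 to 0.791 of the static level for Cyp4a10 and 0.587 to 0.7 for Cyp4a14, and both passed with the block (-0.57, adjusted p = 0.000388 and -0.63, adjusted p = 0.000154). Without static replicate 2 and without the block, the log2 fold change of Cyp4a14 was 0.47, not called. Cyp4a12a, a male-biased gene for arachidonic acid hydroxylation, had 95.3, 26.7, 73.6 and 95.7 CPM under shear stress and 165, 44.4, 105 and 143 CPM in static culture and fell with the block (-0.65, adjusted p = 0.000104). Its close copy Cyp4a12b did so too (-0.69, adjusted p = 0.000748), while Cyp4a31 (-0.49) and Cyp4a32 (-0.41) passed neither fit.

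Among the CYP4F genes, which inactivate leukotrienes and hydroxylate fatty acids, 9 were members and 5 were tested. Without the block 1 fell and 1 rose, and with it 2 fell and 1 rose. Cyp4f14, a leukotriene B hydroxylase gene, had 45.6, 58.03, 81.8 and 50.7 CPM in shear stress replicates 1 to 4, against 65.3, 94.02, 126 and 79.3 CPM in static replicates 1 to 4. Cyp4f16 had 28.99, 34.6, 24.1 and 29.4 CPM in shear stress replicates 1 to 4, against 16.5, 20.7, 11.7 and 26.9 CPM in static replicates 1 to 4. The groups overlapped in both, and Cyp4f14 fell (log2 fold change -0.62 ± 0.23, adjusted p = 0.0499) while Cyp4f16 rose (log2 fold change 0.63 ± 0.23, adjusted p = 0.0469). The call on Cyp4f14 was lost without shear stress replicate 1, 2 or 4 or static replicate 2, 3 or 4 (adjusted p up to 0.127) and in library totals scaling (0.164), and that on Cyp4f16 without shear stress replicate 1, 2 or 4 or static replicate 1, 2 or 3 (up to 0.113). Both passed with the block (-0.62, adjusted p = 0.000108 and 0.67, adjusted p = 0.00291), and Cyp4f16 shares 26.5% of its windows with other genes. Cyp4f15 fell only with the block (-0.73, adjusted p = 0.00438), while Cyp4f13 (-0.15) and Cyp4f17 (0.31) passed neither fit. The groups of Cyp4f17 did not overlap, with its shear stress libraries above the static ones.

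Cyp4v3 is the mouse counterpart of human CYP4V2, a fatty acid hydroxylase gene that is mutated in Bietti crystalline dystrophy. At chromosome 8, 45305801 to 45333163, minus strand, it had 161, 151, 169 and 162 CPM in shear stress replicates 1 to 4, against 236, 237, 231 and 241 CPM in static replicates 1 to 4. Its static libraries varied least of the genes that fell, the groups did not overlap, and Cyp4v3 fell by a modest amount (log2 fold change -0.56 ± 0.08, adjusted p = 0.000411). A predicted gene, Gm45753, overlaps it on the same strand and shares 7.02% of its windows.

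Steroid, retinoid and oxysterol enzymes form most of the rest of the tested genes. Cyp21a1 (chromosome 17, 34801348 to 34804426, minus strand) encodes steroid 21-hydroxylase, known chiefly from the adrenal cortex. It had 20.8, 14.04, 7.27 and 18.3 CPM in shear stress replicates 1 to 4, against 4.01, 0.931, 1.21 and 6.42 CPM in static replicates 1 to 4. Every shear stress library was above every static one, by 2.86 to 15.1 times within pairs, and Cyp21a1 rose (log2 fold change 2.25 ± 0.58, adjusted p = 0.012). Its windows overlap by 23.7% with the pseudogene Cyp21a2-ps, so part of its reads could belong there. Cyp17a1, the 17-hydroxylase of androgen synthesis, had 0, 1.1, 1.15 and 0.113 CPM under shear stress and 0.555, 3.2, 2.05 and 0.36 CPM in static culture and fell only with the block (-1.48, adjusted p = 0.0136). The other steroid synthesis genes among the members, Cyp11a1, Cyp11b2 and Cyp19a1, were too low to be tested, with 1 count each.

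Cyp26b1, which clears retinoic acid, had 0.347, 0.47, 0.346 and 0.34 CPM in shear stress replicates 1 to 4, against 1.48, 1.4, 1.74 and 0.9 CPM in static replicates 1 to 4. These are low levels, but its groups were apart and it fell (log2 fold change -1.84 ± 0.32, adjusted p = 0.00138). Cyp26a1, the main retinoic acid hydroxylase of liver, had 4.05, 0.835, 0.404 and 0.396 CPM under shear stress and 4.31, 0.582, 0.834 and 0.84 CPM in static culture. Library 1 of each group was far above the others, and Cyp26a1 passed neither fit (log2 fold change -0.22 ± 0.89, adjusted p = 0.857). Cyp39a1 (chromosome 17, 43667372 to 43751431, plus strand), a hydroxylase of 24-hydroxycholesterol, had 19.4, 19.5, 32.5 and 20.9 CPM in shear stress replicates 1 to 4, against 49.3, 49.98, 70.8 and 39.1 CPM in static replicates 1 to 4. The groups were apart and Cyp39a1 fell (log2 fold change -1.18 ± 0.22, adjusted p = 0.0022), at 0.389 to 0.536 of the static library of its number. Cyp20a1, an enzyme without a settled substrate, had 20.7, 26.4, 21.2 and 24.6 CPM under shear stress and 30.4, 19.8, 15.99 and 23.5 CPM in static culture and no call (log2 fold change 0.05 ± 0.19, adjusted p = 0.84), with a sign that flipped when shear stress replicate 2, static replicate 2 or static replicate 3 was left out.

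**Figure D4:**
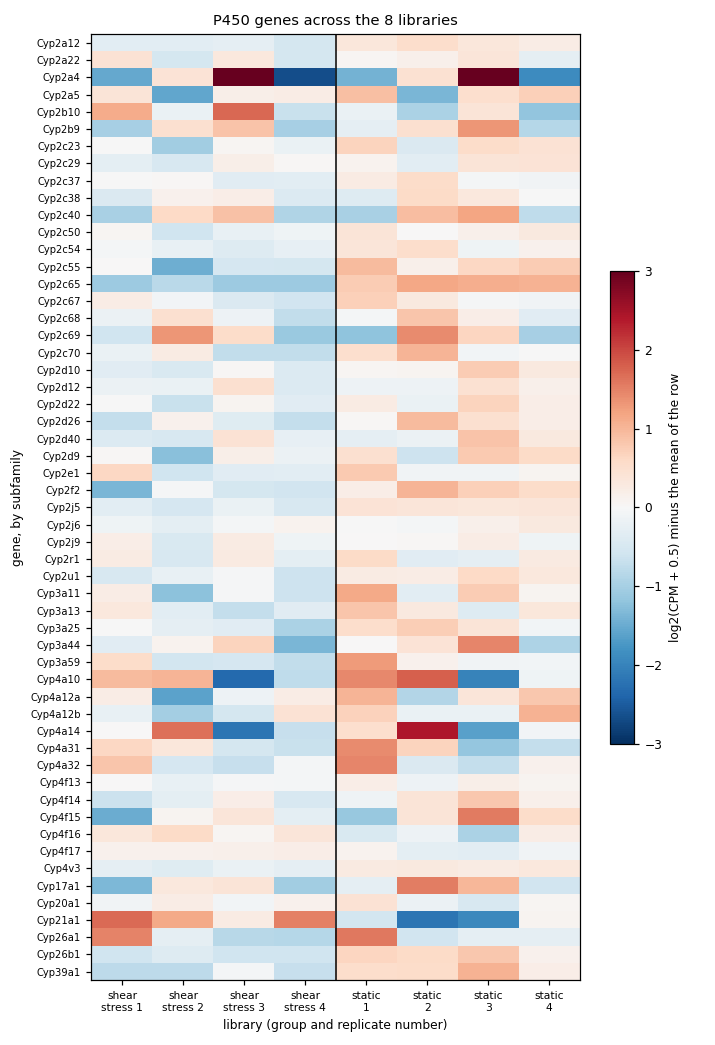
Each cell is log2(CPM + 0.5) minus the mean of its gene (y axis) in a library (x axis), with shear stress left of the line and static right, and colours end at a log2 difference of 3 either way. Columns of the same number share the deviations of Cyp2a4, Cyp4a10 and Cyp4a14, and Cyp21a1 is above its own mean in all 4 shear stress libraries.

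The 27 members that were not tested held between 0 and 64 counts each over the 8 libraries. They were Cyp2ab1, Cyp2b23, Cyp2c39, Cyp2c66, Cyp2d11, Cyp2d34, Cyp2g1, Cyp2j13, Cyp2j8, Cyp2s1, Cyp2w1, Cyp3a41a, Cyp3a41b, Cyp3a57, Cyp4b1, Cyp4f18, Cyp4f37, Cyp4f39, Cyp4f40, Cyp4x1, Cyp11a1, Cyp11b2, Cyp19a1, Cyp24a1, Cyp26c1, Cyp27b1 and Cyp46a1. Among them are the vitamin D genes Cyp27b1, which activates the hormone, and Cyp24a1, which inactivates it, with 52 and 19 counts. At a depth where 3 counts equal 0.157 to 0.174 CPM under shear stress and 0.175 to 0.227 CPM in static culture, these genes were left out of the test by the filter on low counts, and their values are given with no test. The groups were apart in 3 of them: Cyp2d11 with 3.04 counts under shear stress and 21.1 in static culture, Cyp2c66 with 0 counts under shear stress and 12.1 in static culture, and Cyp4f39 with 1 count under shear stress and 7 in static culture. All 3 were lower under shear stress, but no share over all untested genes was computed. At so few counts no result is read from them. Cyp2b23 had 15 counts under shear stress and 1 in static culture, with overlapping groups.

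Grouped by role, 2 of 7 pericentral P450 genes fell without the block and 7 with it (median log2 fold change -0.42). Of the 2 periportal genes, Cyp2f2 and Cyp17a1, 1 fell without the block and 2 with it (median -1.28). Of 11 tested CAR and PXR targets 4 fell, and with the block 9 fell and 1, Cyp2b10, rose (median -0.48). Of 8 tested PPARA targets 1, Cyp4f16, rose and none fell, and with the block 5 fell and 1 rose (median -0.64). Among 5 tested male-biased genes 1 fell, or 4 with the block (median -0.65), and among 9 tested female-biased genes none passed without it and 3 fell with it (median -0.49). The lists overlap. Over all tested genes the median was -0.01, 23.7% fell and 24.9% rose without the block, and 31.0% fell and 30.1% rose with it.

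P450 enzymes depend on redox partners and on haem. The list of 21 genes taken for these, all tested, also holds the haem breakdown genes Hmox1, Hmox2, Blvra and Blvrb. Of the 21 genes 4 fell and 1 rose (6 and 2 with the block), with a median of -0.13. The shares of 19.0% falls and 4.76% rises stand beside 23.7% and 24.9% of all tested genes. Por, the reductase that serves every microsomal P450, averaged 415 ± 98.4 CPM under shear stress and 393 ± 52.8 CPM in static culture and was not called (log2 fold change 0.08 ± 0.17, adjusted p = 0.728). Pgrmc1, a haem-binding partner of P450 enzymes, had 1427, 1259, 1562 and 1326 CPM under shear stress and 2129, 1881, 2233 and 2034 CPM in static culture and fell (log2 fold change -0.57 ± 0.10, adjusted p = 0.0018). The other cytochrome b5 gene of the list beside Cyb5b, Cyb5a, averaged 273 ± 23.5 CPM under shear stress and 304 ± 29.9 CPM in static culture. Cyb5a was not called (log2 fold change -0.15 ± 0.10, adjusted p = 0.242). Cyb5b, a cytochrome b5 of the outer mitochondrial membrane, fell (log2 fold change -0.64 ± 0.14, adjusted p = 0.00454), as did Urod of haem synthesis (log2 fold change -0.45 ± 0.13, adjusted p = 0.0164). The call on Urod was lost in library totals scaling (adjusted p = 0.132). Fdx2, a mitochondrial ferredoxin, rose (log2 fold change 0.56 ± 0.09, adjusted p = 0.00118). The other ferredoxin gene of the list, Fdx1, was not called (log2 fold change 0.19 ± 0.13, adjusted p = 0.269). Only with the block, Cpox (-0.27, adjusted p = 0.0337) and Hmox1 (-1.12, adjusted p = 0.00491) fell and Alas1 rose (0.51, adjusted p = 0.0365).

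Of 40 regulators of P450 genes 37 were tested, and 18 fell and 6 rose (20 and 8 with the block), with a median of -0.57. Falls were thus 48.6% and rises 16.2% of the tested regulators, where 23.7% of all tested genes fell and 24.9% rose. Bcl6, a repressor that keeps female-biased genes low in male mouse liver, had 20.3, 14.9, 11.3 and 11.6 CPM under shear stress and 58.2, 80.1, 73.1 and 43.3 CPM in static culture. Bcl6 fell (log2 fold change -2.13 ± 0.24, adjusted p = 0.000204), and so did the retinoic acid receptor gene Rara (log2 fold change -1.21 ± 0.14, adjusted p = 0.000173), its partner gene Rxrb (log2 fold change -1.02 ± 0.10, adjusted p = 8.19e-05) and the pioneer factor gene Foxa1 (log2 fold change -1.43 ± 0.21, adjusted p = 0.000566). Receptors that drive the P450 families are given outside the naming rule, as chosen after their values were seen. The PXR transcript (Nr1i2) rose (log2 fold change 1.14 ± 0.37, adjusted p = 0.0281), from 3.02 CPM in static culture to 6.66 CPM under shear stress. That of PPARA (Ppara) rose too (log2 fold change 0.71 ± 0.20, adjusted p = 0.0163). Those of CAR (Nr1i3, log2 fold change -0.31 ± 0.23, adjusted p = 0.293) and Hnf4a (log2 fold change 0.13 ± 0.19, adjusted p = 0.59) were not called. CAR averaged only 1.29 CPM under shear stress and 1.6 CPM in static culture. Among other receptor genes of the list, Rxra (-0.54, adjusted p = 0.00224), Nr3c1 (-0.75, adjusted p = 0.00125) and Rora (-1.15, adjusted p = 0.0108) fell. Ppard (1.09, adjusted p = 0.000756), Nr1h3 (0.59, adjusted p = 0.00663) and Nr5a2 (0.93, adjusted p = 0.00584) rose.

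The labelled cell type was checked by its markers. All 6 hepatocyte markers (Alb, Ttr, Apoa1, Serpina1a, Tat and Cps1) were expressed, at summed levels of 42906 to 58161 CPM in shear stress libraries and 63625 to 82870.1 CPM in static libraries. The P450 genes took 0.491% to 0.636% of counts under shear stress and 0.646% to 0.83% in static culture. Markers of other cells summed to 215 to 1703.7 CPM in shear stress libraries and 131 to 1317.9 CPM in static libraries for cholangiocytes, nearly all Spp1 and Sox9, with Krt19 and Epcam under 1 CPM on average and 0 of 3 tested called without the block. With the block Spp1 (0.65, adjusted p = 0.0467) and Epcam (1.01, adjusted p = 0.0499) rose. Macrophage markers summed to 16.6 to 56.6 CPM under shear stress and 22.1 to 55.9 CPM in static culture, nearly all Cd68, with 0 of 1 called. Stellate markers summed to 2.14 to 4.46 CPM under shear stress and 2.22 to 8.63 CPM in static culture, with 0 of 1 called without the block, and that 1, Dcn, fell with it (-0.72, adjusted p = 0.022). Endothelial markers summed to 3.96 to 15.6 CPM under shear stress and 8.76 to 19.9 CPM in static culture, with 1 of 4 called, Pecam1, which fell. The other 3 tested endothelial markers had log2 fold changes above 0 and were not called (median of the 4 at 0.38). Lymphocyte markers summed to 0.115 to 0.626 CPM under shear stress and 8.7 to 11.7 CPM in static culture, and 2 of 2 tested, Cd79a and Cd79b, fell. The other lymphocyte markers with values, Ptprc and Ms4a1, averaged under 1 CPM in both groups and were not tested. The part of these markers in the P450 changes was not tested.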

How the data were processed

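RNA-seq libraries of mouse hepatocytes were grouped by their titles, 4 from shear stress and 4 from static culture. Per the labels, RNA was extracted with TRIzol and phi29 libraries were sequenced on DNBSEQ. The submitters' processing notes name HISAT, Bowtie2, RSEM and GRCm38 (mm10). Not given in the sources used here are their versions, the annotation and the strand setting. The deposited read counts are expected counts, estimated by the authors with RSEM. Between 15067056 and 17935566 estimated counts were present per library. The deposited TPM and FPKM values were also made by the authors, per the file headers.

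Counts were rounded, low genes were removed by filterByExpr, and edgeR 4.0.16 in R 4.3.3 gave quasi-likelihood F tests (TMM, robust), adjusted by Benjamini-Hochberg (threshold 0.05). The standard error is the log2 fold change over the square root of F. Alternatives were DESeq2 1.42.0, limma 3.58.1 on log2(FPKM + 1) or log2(FPKM + 0.1) for genes with FPKM of at least 1, other scalings and filters, single libraries left out, and the replicate number as a block. After group means were removed, same-number libraries had r = 0.679, 0.642, 0.56 and 0.467 (8446 genes), against at most -0.0178 between different numbers. Removing the means pushes the different-number values below 0 where the same-number values are above 0, so their negative sign is not a separate result. On the same-number values, libraries were treated as paired by number, whose meaning the labels leave out. Blocking lowered the biological coefficient of variation to 0.125, against 0.214 without it. The procedure was tested on simulated data.

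Members and lists were chosen with earlier results of these data known. Named genes were the most abundant tested gene of each subfamily, the 10 largest rises and 10 largest falls of called genes averaging 1 CPM or more in either group, a set of genes in every case (among them Cyp2e1, Cyp3a11 and Cyp4a10), and up to 4 called genes by smallest p of the redox and regulator lists, and other called members. Promoter windows are RefSeq sequences of GRCm38.p6. Transcripts are from GENCODE M21. TPM entered no test.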

Additional observations from a re-analysis of the deposited data

Results flagged for a closer look

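A sample far from the rest of its group was found in 9 of 76 groups of 4 libraries looked at, over 38 named genes, by Dixon's gap ratio at its 95% critical value. Chance gives about 1 in 20 groups. Cyp26a1 was highest in replicate 1 of both groups, at 4.05 CPM in the shear stress library and 4.31 CPM in the static one. Cyp2e1 was likewise highest in replicate 1 of both groups, at 936 CPM under shear stress and 1052.2 CPM in static culture. Cyp26b1 was highest at 0.47 CPM and Cyp2c65 at 0.104 CPM in shear stress replicate 2, both levels of a few counts. Cyp2a5 was lowest in shear stress replicate 2, at 183 CPM. Cyp39a1 was highest in shear stress replicate 3, at 32.5 CPM. Urod was highest in static replicate 3, at 71.6 CPM.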

How the results depend on the processing

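The number of P450 genes that fell was 15. It was 8 with library totals, 7 with each FPKM pseudocount, 36 with the replicate block, 28 with the block and library totals and 31 with the block and upper quartile factors, and 10 to 18 with a library left out. The number that rose was 2, but 4 with the block and either library totals or upper quartile factors, and 1 to 2 with a library left out. The fits with the block and another scaling were chosen after seeing the data. Over all genes, 2924 rose and 2783 fell. With library totals 4157 rose and 1539 fell, with upper quartile factors 3652 rose and 1982 fell, and with the FPKM pseudocounts 1315 and 1306 fell. With the block, 5080 rose under library totals and 4433 under upper quartile factors. Leaving out a library gave 2436 to 2841 rises and 2224 to 2681 falls. Of redox and haem genes 1 rose, against 3 with library totals, 2 with upper quartile factors, 4 with each FPKM pseudocount, 2 with the block, 7 with the block and library totals, 5 with the block and upper quartile factors and 1 to 2 with a library left out. Their falls were 4, against 2 with library totals, upper quartile factors and each FPKM pseudocount and 3 to 4 with a library left out. Regulators that rose numbered 6, against 10 with the block and library totals and 5 to 7 with a library left out, and those that fell 18, against 15 to 18. The cause was not tested. Of the 55 tested P450 genes, none that was called changed sign in any of these settings. Among those not called, 7 changed sign with library totals (8 with the block as well), 7 with each FPKM pseudocount and 9 without static replicate 3, and no other setting changed more than 4. For the genes named by the rule, the reversed values are those of Cyp20a1 (-0.082 to 0.229 with a library left out: -0.013 without shear stress replicate 2, -0.007 and -0.082 without static replicates 2 and 3), Cyp26a1 (-1.553 to 0.909: 0.088 and 0.095 without shear stress replicates 3 and 4, 0.909 without static replicate 1), Cyp2r1 (-0.29 to 0.06 with a library left out, 0.066 with library totals, 0.076 and 0.097 with the FPKM pseudocounts 1 and 0.1, 0.06 without static replicate 1, 0.08 with the block and library totals) and Cyp4a14 (-1.727 without shear stress replicate 2, 0.473 without static replicate 2). The median of the P450 genes was -0.582 to -0.234 and below that of all genes in each of these settings. DESeq2 added Cyp3a11 (adjusted p = 0.0338). At these depths the genes with few counts are limited by counting error.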
